A study of Mus musculus with 20 samples.

Results

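The transcripts described here encode the proteins of the cytoplasmic ribosome, measured in mouse liver after 28 days of benzo(a)pyrene (BaP), a polycyclic aromatic hydrocarbon whose metabolites bind DNA. Members were chosen by gene symbol: every array probe whose accession mapped to a symbol of the form Rpl or Rps with a number, or to *Rplp0*, *Rplp1*, *Rplp2* or *Rpsa*, without the Rps6k kinases and pseudogene symbols. This gave 121 of 41174 probes, for 84 of 16535 named genes. Of these, 119 probes for 83 genes passed the presence filter, which asked for a signal above the negative control spots in 4 or more of the 5 arrays of at least 1 group. Each gene is represented by its brightest present probe, and all 83 of these probes were well above background on all 20 arrays. *Rpl3l*, the muscle paralog of *Rpl3*, was not well above background on 18 of the 20 arrays, nor was 1 of the 2 probes of *Rpl39l*, and these 2 probes are not described further. The symbol rule also took in *Rps19bp1*, which encodes a protein that binds RPS19 and is not itself a subunit.

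Ribosomal proteins are made in near-equal numbers, in the large subunit (Rpl genes), the small subunit (Rps genes) and the acidic stalk (Rplp genes) that recruits elongation factors. Some have paralogs, and *Rps27l*, the paralog of *Rps27*, is known as a p53 target whose product can take the place of RPS27 in the ribosome and binds MDM2, the ubiquitin ligase of p53. Free RPL5, RPL11, RPL23, RPL26 and RPS7 are also known to bind MDM2, or p53 transcripts, when ribosome assembly is disturbed. The question for these transcripts is whether any moved with the dose of BaP, and whether *Rps27l* moved apart from the rest.

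The animals were 20 male Muta™Mouse, a mouse carrying a *lacZ* transgene for mutation assays (strain 40.6), 25 weeks of age, 5 in each of 4 groups. Controls (replicates 1 to 5) received olive oil by gavage daily for 28 days, and the others received BaP in olive oil at 25 mg/kg/day (replicates 6 to 10), 50 mg/kg/day (replicates 11 to 15) or 75 mg/kg/day (replicates 16 to 20). All were killed 3 days after the last dose. Each liver RNA, labelled with Cy5, was hybridized once with a universal mouse reference RNA, labelled with Cy3, on a two-color Agilent array without a dye swap. Values are log2 ratios of liver over reference, and a change is a difference of such ratios between groups. A transcript was called when its p from limma, adjusted by Benjamini-Hochberg over all present probes, was under 0.05 and the groups differed by more than 1.5-fold.

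The labels name lungs as well as liver. The hepatocyte transcripts *Alb*, *Ttr*, *Tat*, *Cyp2e1*, *Apoa1* and *Ass1* were at 3.32 to 5.58 over the reference in controls, while *Sftpb* and *Sftpc*, which define lung alveolar cells, were well above background on 0 arrays, and the samples are called liver here. Of the other lung markers, 1 of 2 *Sftpa1* probes was well above background on 16 arrays (0.44 over the reference in controls), *Aqp5* on 20 (-1.55), *Scgb1a1* on 5 (0.00) and *Ager* on 1 (-0.40), all far below the hepatocyte range of ratios. Between 51.9% and 67.5% of spots per array were well above background, and arrays of a group correlated at r between 0.931 and 0.983. The 20 arrays lay on 6 slides: slides 1 to 3 held 1 array of each group, slides 4 and 5 only 25 and 75 mg/kg, and slide 6 only controls and 50 mg/kg. The position on the slide followed the dose except on slide 6, all arrays at 75 mg/kg being at position 4, and no position held both controls and 75 mg/kg, so for that comparison position and dose cannot be told apart. In RNA from whole liver, fewer cells of a type and less RNA per cell cannot be told apart.

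Most vertebrate ribosomal protein mRNAs begin with a C followed by an uninterrupted run of pyrimidines, the 5′ terminal oligopyrimidine (TOP) sequence that couples their translation to nutrient signals. Of the 83 genes, 63 matched an entry in the RefSeq promoter table (build GRCm38.p6). A C followed by 5 or more pyrimidines, beginning at most 5 bases from an annotated start and read on the coding strand, was found in 26 of them (41.3%), against 11.9% of all 27025 genes of the table. It was found in 1 of the 5 paralogs. The 30 bases around the annotated start (15 before and 15 after it, the run in capitals) are shown for *Rps27l* and its partner *Rps27*, for *Rpl22l1* and *Rpl15*, which lie near *Rps27l* in the order of changes at 75 mg/kg, and for *Rpl36al* and *Rpl39l*, which lie at the ends of the order of levels with it:
Rps27l, chr9:66946071-66946100, plus strand: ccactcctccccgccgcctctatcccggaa
Rps27l, second annotated start, chr9:66946398-66946427, plus strand: accatgggcttcagggtcactaacgggcct
Rps27, chr3:90213634-90213663, minus strand: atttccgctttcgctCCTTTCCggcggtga
Rpl22l1, chr3:28805493-28805522, plus strand: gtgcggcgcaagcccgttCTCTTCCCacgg
Rpl15, chr14:18270972-18271001, minus strand: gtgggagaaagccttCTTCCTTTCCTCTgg
Rpl36al, chr12:69184053-69184082, minus strand: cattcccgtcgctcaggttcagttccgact
Rpl39l, chr16:10170213-10170242, plus strand: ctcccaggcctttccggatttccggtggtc
The run began at the annotated start in *Rps27* and *Rpl15* and 3 bases after it in *Rpl22l1*. None began within 5 bases of an annotated start in *Rps27l*, *Rpl36al* or *Rpl39l*. In the bases printed for *Rps27l* and *Rpl39l* such a run began further before the start (ctcctcccc and cctttcc, not in capitals). Its absence in these genes, and the count of 1 of the 5 paralogs, thus rests on the limit of 5 bases and on the annotated starts.

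The same table was searched for the p53 half-site, in the 250 bases before and 50 bases after each start. The half-site reads alike on both strands. It was held by 5 of the 63 genes (7.94%), against 9.55% of all genes. The window at the second annotated start of *Rps27l*, which lies downstream of the first, held it at 2 places, as 0.359% of all 32851 windows did at 2 or more places. They are shown with 10 bases on each side, the half-site in capitals, because *Rps27l* is a known p53 target, with the 1 match in the window of *Rps27*, its partner, which began 29 bases after the start:
Rps27l, chr9:66946193-66946222, plus strand: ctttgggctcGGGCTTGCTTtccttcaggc
Rps27l, chr9:66946296-66946325, plus strand: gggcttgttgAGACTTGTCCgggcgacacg
Rps27, chr3:90213600-90213629, minus strand: ctccctacgaGAACATGCCTgtgagttcct
A match describes these letters only, and binding was not measured. The probe sequences are not part of the files used here, so hybridization of a probe to a paralog or to one of the many processed pseudogenes of this family was not tested.

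In control liver *Rps27l* stood at the top of the family relative to the reference. Its 5 control arrays read 0.60, 0.62, 1.26, 0.97 and 0.71, a mean of 0.83 ± 0.28 (SD, n = 5), so its ratio was above 0 in all 5 livers. *Rpl36al*, a paralog of *Rpl36a*, followed at 0.61 ± 0.48, and these were the 2 genes of 83 above 0. The next in order were the paralogs *Rpl7l1*, whose product works in ribosome assembly, at -0.08 ± 0.14, and *Rpl22l1*, the paralog of the RNA-binding *Rpl22*, at -0.20 ± 0.43, and then *Rps29* at -0.44 ± 0.50. In this order *Rps27l* and *Rpl36al* overlapped within their SDs, as did *Rpl7l1* with *Rpl22l1* and *Rpl22l1* with *Rps29*, whereas *Rpl36al* and *Rpl7l1* did not. Slide bears on the place of *Rpl36al*. Over all groups it read -0.04 to 0.57 on slides 1 to 3 and 0.49 to 1.52 on slides 4 to 6, and the controls lay on both sets. All 43 genes of the large subunit and all 31 of the small subunit lay below 0, with medians of -1.81 and -1.78, and the fifth paralog, *Rpl39l*, known from male germ cells, was the lowest of the family at -4.18 ± 0.54. The median over the 83 genes was -1.78, against -0.01 over the 12986 genes with a present probe. The 31 translation factors were all below 0 as well (median -1.28), whereas 55 of 76 mitochondrial ribosomal protein genes were above 0 (median 0.37). These ratios set liver against the reference for 1 probe at a time and do not rank the genes by abundance. Without a dye swap, a dye bias of a probe cannot be told apart from its level.

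**Figure D1:**
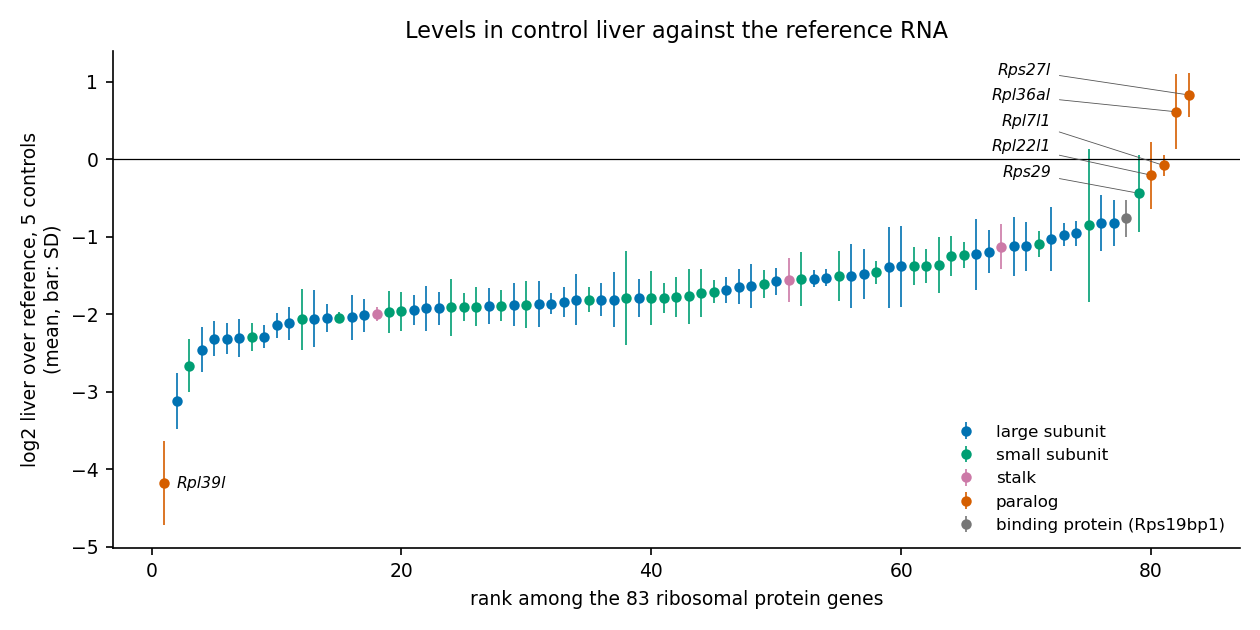
Mean log2 ratio of liver over reference in the 5 control livers (bar: SD) for each of the 83 genes, in rank order and colored by role. *Rps27l* (0.83) and *Rpl36al* (0.61) lie above 0, *Rpl39l* (-4.18) lies lowest, and the core subunits all lie below 0.

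*Rps27l* was higher on average at 25 and 75 mg/kg than in controls, and no dose was called. At 25 mg/kg its arrays read 1.67, 1.61, 1.48, 1.01 and 1.05, at 50 mg/kg 1.07, 1.19, 0.66, 0.76 and 1.05, and at 75 mg/kg 1.24, 1.64, 1.79, 1.23 and 2.20. Only 3 of 5 arrays at 25 mg/kg and 3 of 5 at 75 mg/kg exceeded the highest control (1.26, replicate 3), and none at 50 mg/kg did, so each dose group overlapped the controls. The log2 fold change was 0.53 (SE 0.19, limma adjusted p = 0.636) at 25 mg/kg, 0.12 (SE 0.19, adjusted p = 0.935) at 50 mg/kg and 0.79 (SE 0.19, adjusted p = 0.112) at 75 mg/kg, which is a fold of 1.73 with a 95% interval of 0.40 to 1.17 on the log2 scale. The unadjusted limma p was 0.0095, 0.542 and 0.000394 in the same order. The means did not follow the dose: they ran control 0.83, 50 mg/kg 0.95, 25 mg/kg 1.36 and 75 mg/kg 1.62. No neighbours in that order passed the limma test against each other, with adjusted p = 0.935 (50 mg/kg against control), 0.578 (50 against 25 mg/kg) and 1.00 (75 against 25 mg/kg, where 0.0549% of all present probes were called higher). The linear trend was 0.19 per 25 mg/kg (SE 0.07, limma adjusted p = 0.421). At an adjusted p under 0.05, 0 of the 119 probes had a rising or falling trend, against 0.154% and 0.00366% of all 27346 present probes. At an unadjusted p under 0.05, 12 of the 119 probes rose and 0 fell, against 5.07% and 3.51%. Per gene, 10 of 83 rose and 0 fell, against 831 and 452 of the 12986 genes with a present probe.

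Within slides 1, 2 and 3, *Rps27l* was higher at 75 mg/kg than in the control of the same slide by 0.67, 1.08 and 0.63. At 50 mg/kg the differences within slides 1, 2, 3 and 6 were 0.08, 0.05, 0.47 and -0.01, and at 25 mg/kg those within slides 1 to 3 were 0.04, 0.78 and 0.45. With slide as a fixed block the change at 75 mg/kg was 0.69 (limma adjusted p = 0.152). Leaving out 1 array at a time moved it between 0.64 (without replicate 20, the highest array) and 0.89 (without control replicate 3), with adjusted p between 0.0514 and 0.318. The direction at each dose held without background correction, with the scanner software's signals, with the authors' ratios and with the liver channel alone, where the change was 0.27 at 25 and 0.52 at 75 mg/kg.

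*Rps27*, the partner of *Rps27l*, is a core subunit that lay below the reference in every array. Its values were -1.03, -1.69, -1.39, -1.50 and -1.29 in controls and -1.20, -0.96, -0.92, -1.42 and -0.95 at 75 mg/kg, and the groups overlapped. Its log2 fold change was 0.30 (SE 0.14, limma adjusted p = 0.640) at 25 mg/kg, 0.13 (adjusted p = 0.889) at 50 mg/kg, where it turned to -0.07 with the liver channel alone, and 0.29 (SE 0.14, adjusted p = 0.455) at 75 mg/kg. With the liver channel alone it was 0.01 at 25 and 0.09 at 75 mg/kg. The difference *Rps27l* minus *Rps27*, taken within each array, was 2.21 ± 0.40 in controls and 2.71 ± 0.26 at 75 mg/kg (SD, n = 5). It was thus higher by 0.50 (SE 0.21) at 75 mg/kg, with 3 of 5 arrays above all controls, by a two-sided exact permutation test at p = 0.0476, or 0.143 adjusted over the 3 doses. The smallest p the design allows is 0.00794. The unadjusted p rose above 0.05 without any 1 of control replicates 1, 2 and 5 or replicates 17, 18, 19 and 20 at 75 mg/kg, with differences of 0.35 to 0.52. At 25 mg/kg the difference was higher by 0.23 (exact permutation p = 0.437), with values from 0.0893 (without control replicate 1) to 0.388 (without replicate 9) when 1 array was left out and 0.0609 with slide as a fixed block, and at 50 mg/kg it was -0.02 from the controls (exact permutation p = 0.937).

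**Figure D2:**
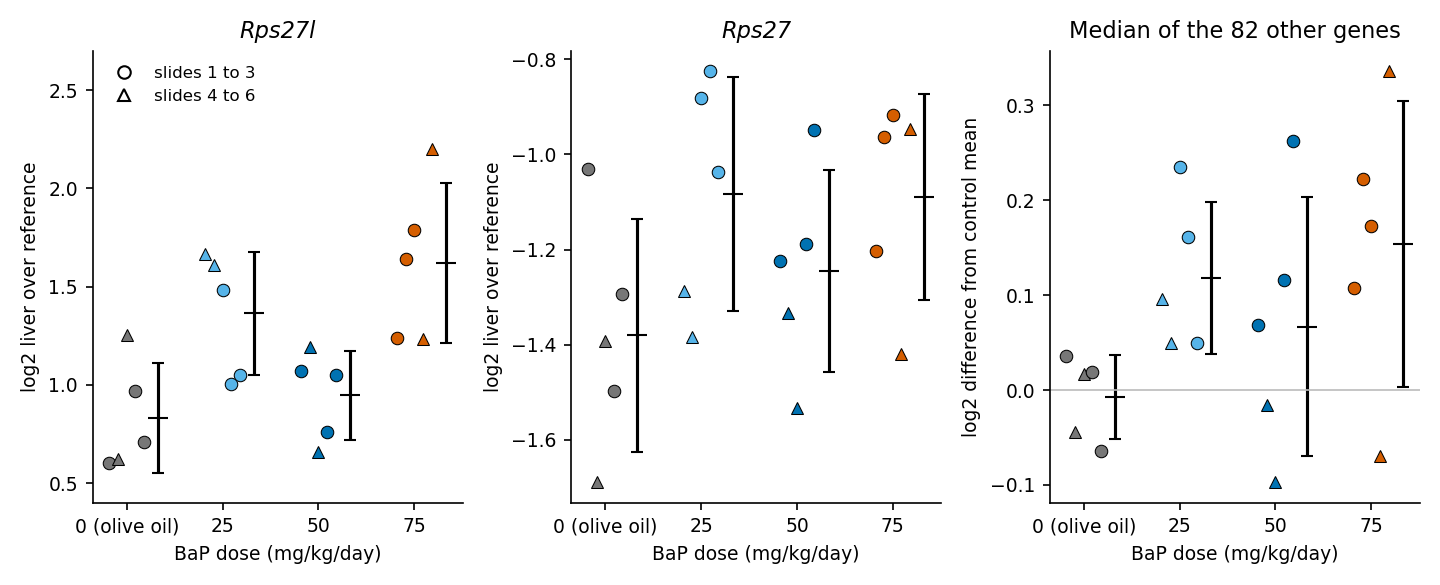
Each point is 1 array, by dose, for *Rps27l* and *Rps27* (log2 liver over reference) and for the median of the 82 other genes (log2 difference from each gene's control mean); circles are slides 1 to 3, triangles slides 4 to 6, and bars the mean and SD of 5. *Rps27l* has 3 arrays above all controls at 25 mg/kg and 3 at 75 mg/kg and none at 50 mg/kg.

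None of the 119 ribosomal protein probes was called by limma at any dose. Calls were rare on the whole array: 0% of the 27346 present probes at 25 and at 50 mg/kg in either direction, and at 75 mg/kg 0.132% higher and 0.00366% lower. By an unadjusted p under 0.05, 9 probes were higher and 1 lower at 25 mg/kg, where the whole array had 4.18% higher and 3.62% lower. At 50 mg/kg the counts were 6 higher and 0 lower, against 3.75% and 2.94%. At 75 mg/kg they were 19 higher (16.0% of 119) and 2 lower (1.68%), against 6.52% and 4.69%. At 25 mg/kg, 1 probe had all exposed arrays above all controls (0.559% over the array), that of *Rps12*. At 50 mg/kg it was 1 (0.527%), a second probe of *Rps2*, and at 75 mg/kg 0 (0.936%). The number of probes with all exposed arrays below all controls was 0 at each dose (0.662%, 0.3% and 0.581% over the array).

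The family lay above the controls by a small median amount, which changed with the scaling at every dose and turned sign at 25 and 50 mg/kg with the liver channel alone. Per gene, the median log2 fold change was 0.11 at 25, 0.06 at 50 and 0.14 at 75 mg/kg, with 61, 54 and 67 of 83 genes above 0, against -0.01, -0.01 and -0.00 over all 12986 genes. With 1 array left out the medians ranged from 0.0688 (without replicate 8) to 0.146 at 25 mg/kg, from 0.0425 to 0.100 (without replicate 13) at 50 mg/kg, and from 0.0897 (without replicate 20) to 0.199 at 75 mg/kg. Per probe, 78 were above and 41 below 0 at 25 mg/kg (50.3% and 49.7% of the array), 66 and 53 at 50 mg/kg (49.2% and 50.8%), and 89 and 30 at 75 mg/kg (50.6% and 49.4%). With the liver channel alone the median turned to -0.01 at 25 and -0.06 at 50 mg/kg and was 0.03 at 75 mg/kg, with 37, 26 and 49 genes above 0. With the authors' ratios it turned to -0.01 at 50 mg/kg. The signals processed by the scanner software gave larger medians of 0.24, 0.07 and 0.32, and there 39 genes (47.0%) were higher at 75 mg/kg by an unadjusted limma p under 0.05, against 7.00% of all genes under that scaling. The same count was 16 (19.3%, against 7.58% of all genes) in the values reported here and 2 (2.41%, against 5.32%) with the liver channel alone. These genes are among the brightest on the array, with their median brightness above that of 99.3% of genes. The 162 other genes at least as bright as the lower quartile of the family had medians of 0.11, 0.09 and 0.09 at the 3 doses, 70.4%, 62.3% and 66.7% of them being above 0. With the liver channel alone those bright genes were at -0.01, -0.04 and -0.03. The part of brightness in the family's median was not tested.

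**Figure D3:**
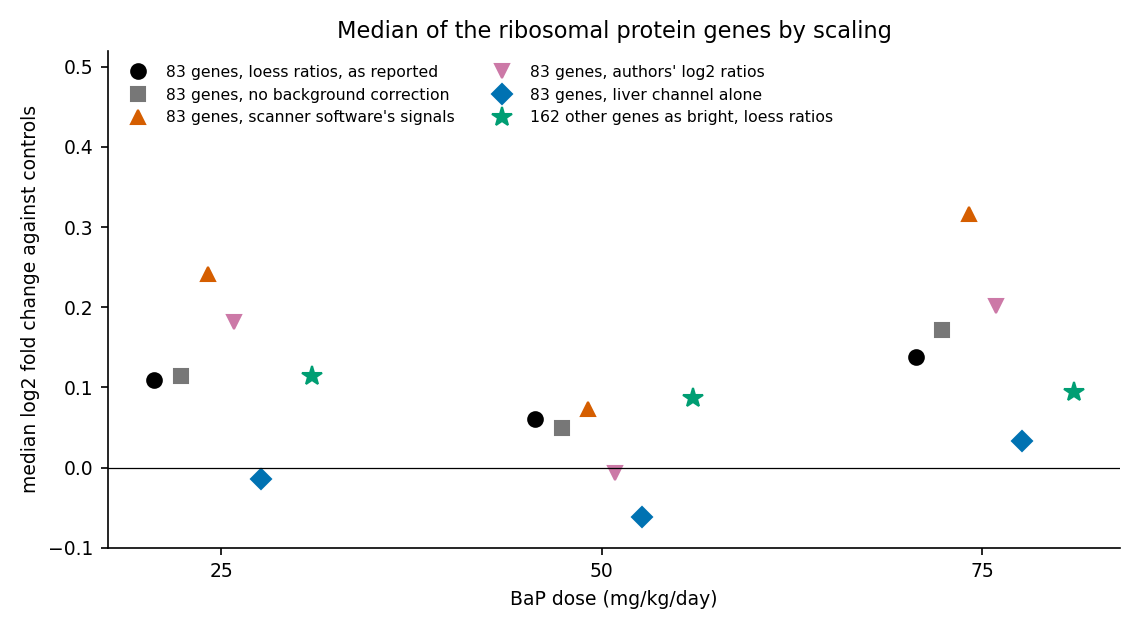
Median log2 fold change of the 83 genes at each dose under 5 scalings of the signals, with the median of the 162 other genes as bright (star). At 75 mg/kg the medians run from 0.03 with the liver channel alone to 0.32 with the scanner software's signals, and at 25 and 50 mg/kg the liver channel alone lies below 0, as do the authors' ratios at 50 mg/kg.

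Per array, the median of the 82 other genes relative to the control means ran from -0.06 to 0.04 in controls, 0.05 to 0.23 at 25 mg/kg, -0.10 to 0.26 at 50 mg/kg and -0.07 to 0.34 at 75 mg/kg. All 5 arrays at 25 mg/kg lay above the controls, and 4 of 5 at 75 mg/kg did, replicate 19 being the lowest there. Within slides 1 to 3 the median moved at 75 mg/kg by 0.20, 0.24 and 0.07. In the same arrays *Rps27l* ranked 1st, 1st, 2nd, 3rd and 8th of 83 by its difference from the control mean at 75 mg/kg, and 3rd to 39th at 25 mg/kg. It ranked 12th to 55th at 50 mg/kg and 11th to 70th in controls.

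Among the small subunit genes, 27 of 31 (87.1%) were above 0 at 75 mg/kg (median 0.14), and 0 were called. Of all genes 49.9% were above 0 there, and of the 162 other genes as bright as the family 66.7%. Over the array, 0.132% of present probes were called higher at that dose. *Rps29*, a zinc-binding protein, had log2 fold changes of 0.61 at 25, -0.11 at 50 and 0.61 at 75 mg/kg (SE 0.25, limma adjusted p = 0.366 at 75 mg/kg), the highest value of the family at 25 mg/kg. It was above 0 at 50 mg/kg with the scanner software's signals. *Rps12* was at 0.22, 0.03 and 0.35 (adjusted p = 0.352 at 75 mg/kg). *Rps19*, mutated in Diamond-Blackfan anemia, was second at 75 mg/kg with 0.69 (SE 0.52, limma adjusted p = 0.657), and its arrays within 1 group were far apart (control SD 0.98). *Rps14* was the highest at 50 mg/kg with 0.40 (adjusted p = 0.676), which fell to 0.02 with the liver channel alone. *Rpsa*, also known as the laminin receptor, was at -0.00, 0.01 and 0.06, and its sign changed with the scaling at each dose. A second, dimmer probe of *Rpsa* was at -0.23 at 75 mg/kg (r = -0.45 between its probes).

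Among the large subunit genes, 34 of 43 (79.1%) were above 0 at 75 mg/kg (median 0.15), and 0 were called. The shares above 0 were 49.9% of all genes and 66.7% of the 162 other bright genes, and 0.132% of present probes were called higher. *Rpl15*, a core protein of the subunit, had the highest value of them at 75 mg/kg, 0.51 (SE 0.14, limma adjusted p = 0.191), with 0.36 at 25 and 0.20 at 50 mg/kg. Its arrays at 75 mg/kg read -1.64, -1.51, -1.33, -2.06 and -1.53 against -2.41, -2.05, -2.14, -1.83 and -2.16 in controls, so 4 of 5 exceeded every control. *Rpl22* was at 0.39, 0.21 and 0.44 (adjusted p = 0.247 at 75 mg/kg) and *Rpl39*, a small protein of the exit tunnel, at 0.44, -0.08 and 0.42, the value at 50 mg/kg turning positive with the scanner software's signals and with the liver channel alone. *Rpl3*, which lines the peptidyl transferase center, and *Rpl7* ranked next to *Rps14* at 50 mg/kg, with 0.34 and 0.32 (adjusted p = 0.676 and 0.781), and under other scalings they were as low as 0.07 and 0.15. The lowest of this group were *Rpl11* at 25 mg/kg (-0.18), *Rpl31* at 50 mg/kg (-0.26) and *Rpl21* at each of the low and high doses (-0.14 and -0.17), with adjusted p of 0.559 or more. The *Rpl21* probe was dim, at a mean log2 intensity of 7.55, against 7.07 for the *Rpl39l* probe that failed the presence filter.

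**Figure D4:**
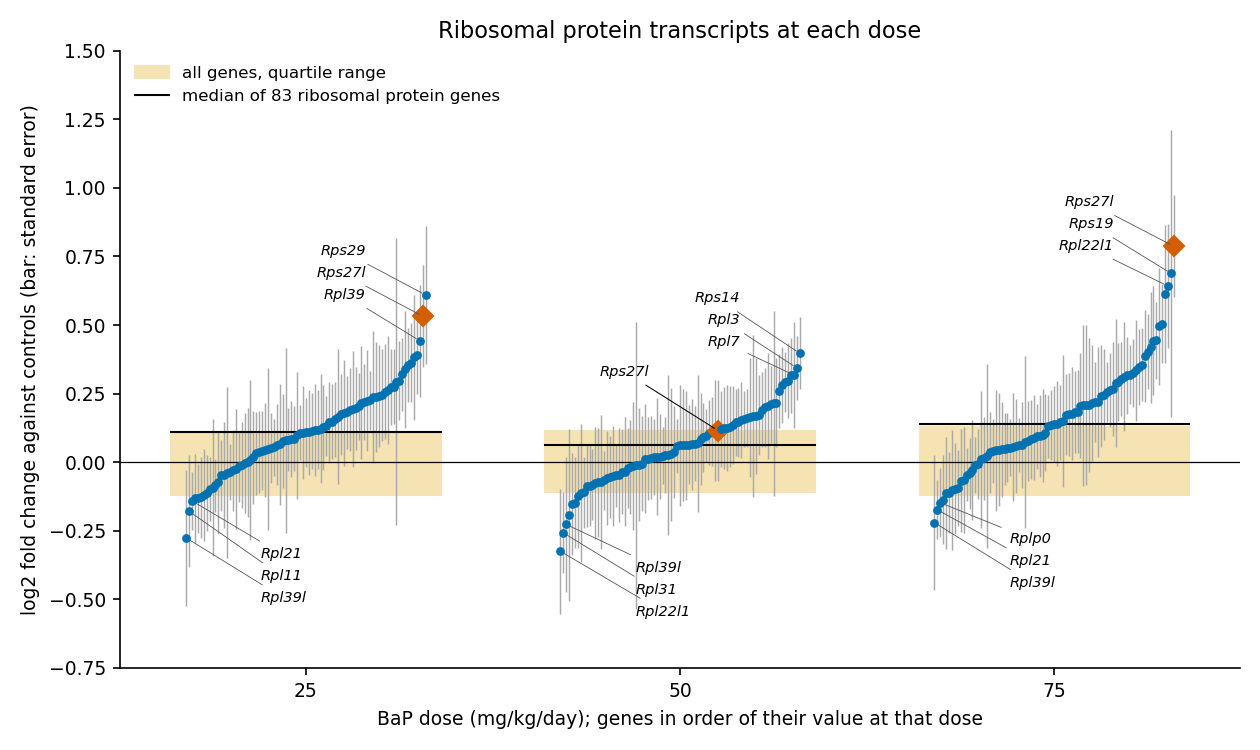
Log2 fold change against controls (bar: SE) of the 83 genes at each dose, in order of their value at that dose, with the quartile range of all genes shaded and the 3 highest and 3 lowest genes named. *Rps27l* (diamond) is 2nd of 83 at 25, 29th at 50 and 1st at 75 mg/kg; the medians lie above 0 here and below 0 at 25 and 50 mg/kg with the liver channel alone.

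The 5 paralogs differed in order and sign among themselves, and 0 were called. *Rpl22l1* was at 0.38 at 25, -0.32 at 50 and 0.64 at 75 mg/kg (SE 0.23, limma adjusted p = 0.301 at 75 mg/kg), the lowest gene of the family at 50 mg/kg and the third at 75 mg/kg. Its controls read -0.54, -0.60, 0.45, 0.00 and -0.34 and its arrays at 75 mg/kg 0.18, 0.60, 0.43, 0.11 and 0.88, so 2 of 5 exceeded every control. Over the 20 arrays it was the gene of the family most like *Rps27l* (Pearson r = 0.856), and its group means had the same order except that 50 mg/kg lay below the controls. *Rpl36al* was at -0.04, -0.19 and 0.07, the first and last changing sign with the liver channel alone, and *Rpl7l1* at 0.11, 0.06 and 0.06. A second, dimmer probe of *Rpl7l1* was at -0.30 at 75 mg/kg (r = -0.41 between its probes). *Rpl39l* was the lowest gene at 25 mg/kg (-0.28) and at 75 mg/kg (-0.22, adjusted p = 0.782), and at both doses it turned to 0.04 with the liver channel alone.

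None of the stalk genes or of those whose products bind MDM2 was called. *Rplp0*, often used as a reference gene, was at -0.13, 0.15 and -0.15 (SE 0.13, limma adjusted p = 0.697 at 75 mg/kg), *Rplp1* at 0.03, -0.09 and 0.01, and *Rplp2* at 0.11, -0.03 and 0.09. A second probe of *Rplp0* was at 0.08 at 75 mg/kg (r = 0.35 between its probes). At 75 mg/kg the sign turned with the scanner software's signals for *Rplp0* (0.05) and with the liver channel alone for *Rplp1* (-0.17) and *Rplp2* (-0.08), as it did with the liver channel alone for *Rplp1* and *Rplp2* at 25 and *Rplp0* at 50 mg/kg. *Rpl5* and *Rpl11*, which bind MDM2 together with 5S rRNA, were at -0.05 (SE 0.10) and -0.11 (SE 0.20) at 75 mg/kg, both turning positive with the scanner software's signals and the authors' ratios. *Rpl23*, *Rpl26* and *Rps7* were at 0.17, 0.15 and 0.27, with adjusted p between 0.582 and 0.728, and *Rpl23* lay at -0.00 with the liver channel alone. Of the 11 measured genes of the list of p53 with its ribosomal partners, 0 were called at any dose, and its median was 0.17 at 75 mg/kg.

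By raw shares, more of the family's variance lay between slides than between dose groups. Over the 82 other genes, a median of 56.9% of the variance lay between slides and 10.4% between dose groups, against 41.2% and 15.4% over all genes. *Rps27l* had 45.8% between slides and 56.1% between dose groups, the highest share between groups of the 83 genes, followed by *Rpl22l1* with 52.6%. These shares overlap, since slides 4 to 6 held only some doses. Nor are they on the same scale, since 6 slides take up a larger share than 4 groups without any effect. The share to be had without an effect was not subtracted. In 21 genes over 70% of the variance lay between slides. *Rps19* read -2.16 to -0.41 on the 12 arrays of slides 1 to 3 and -0.45 to 0.91 on the 8 arrays of slides 4 to 6, and *Rpl36al* -0.04 to 0.57 and 0.49 to 1.52. *Rpl9* and *Rpl41*, singled out after their values were seen, were lower on every array of slides 4 to 6 than on any array of slides 1 to 3. Neither these 2 genes nor the 21 above were set against a count over all genes. Within slides 1 to 3 the change at 75 mg/kg averaged 0.79 for *Rps27l*, 0.72 for *Rps29*, 0.71 for *Rps19*, 0.69 for *Rpl22l1* and -0.05 for *Rpl36al*, each from 3 pairs of arrays. Over the 83 genes it had a median of 0.12, with 60 above 0.

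**Figure D5:**
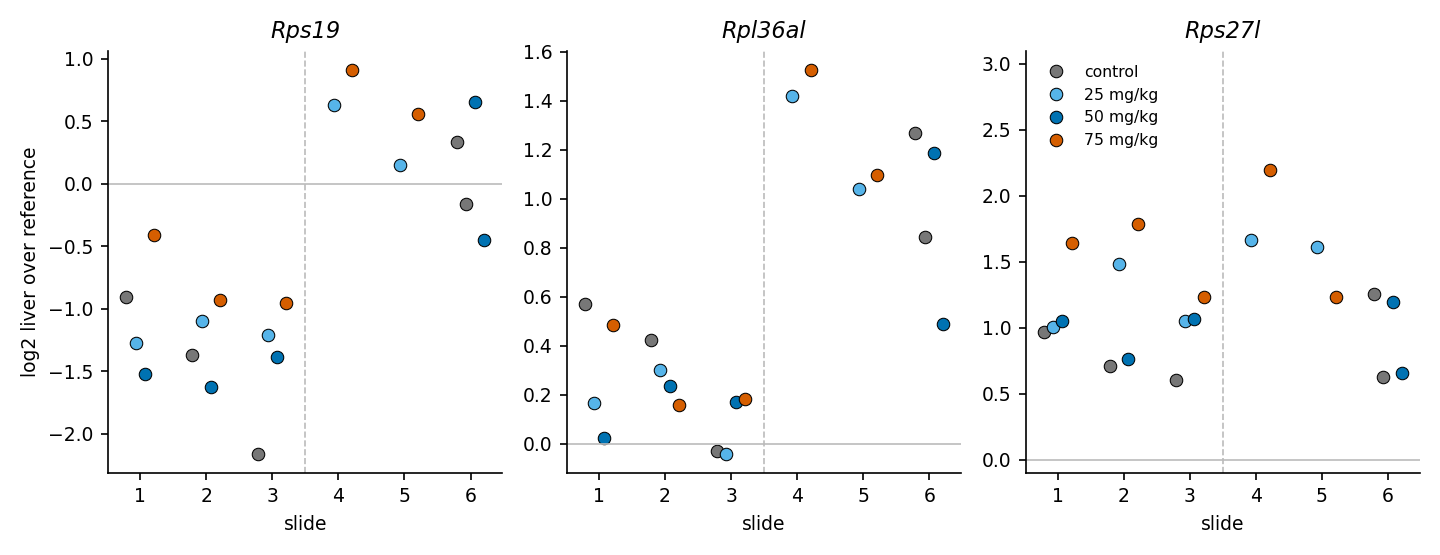
Log2 ratio of liver over reference for *Rps19*, *Rpl36al* and *Rps27l* on each of the 20 arrays, by slide and colored by dose; the dashed line separates slides 1 to 3, which hold all doses, from slides 4 to 6. *Rps19* and *Rpl36al* shift between the 2 sets of slides, while *Rps27l* at 75 mg/kg lies above the control of the same slide on slides 1 to 3.

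Of the 30 genes with several present probes, 13 had all their probes correlated at r over 0.5 across the 20 arrays, and the median range of the log2 fold change at 75 mg/kg between probes of a gene was 0.15. The widest ranges were in *Rpl22* (-0.20 and 0.44, r = -0.64 between its probes), *Rpl37* (-0.21 and 0.33) and *Rpl35a* (-0.31 and 0.15). The brighter probe gave the higher value in each of these. The dimmer *Rpl37* probe lay near background, at a mean log2 intensity of 7.09, and was well above background on 13 of the 20 arrays. *Rps27l* and *Rps27* are each measured by 1 probe, so no second probe bears on them.

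Outside the family, the genes whose pattern over the 20 arrays was most like that of *Rps27l* were *Cbll1* (Pearson r = 0.910), encoding an E3 ligase of the mRNA methylation complex, *Sem1* (0.909), a proteasome subunit, *Uqcr11* (0.895), of respiratory complex III, *Nop10* (0.891), of H/ACA ribonucleoproteins, and *Cgrrf1* (0.879). None of the 5 was called, and they remained at r between 0.825 and 0.898 with group means removed, so the likeness lay largely within groups. The arrays share slides, which bear on every such r. Within the family *Rpl22l1*, *Rpl22* (0.841), *Rps28* (0.828) and *Rpl24* (0.816) came closest, while the median r of *Rps27l* with the other 82 genes was 0.29, against 0.20 between pairs of those genes. The value of *Rpl22* is that of its brighter probe, with which its other probe correlated at r = -0.64.

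Other p53 targets were called at 75 mg/kg, where *Rps27l* was not. Of 34 listed, 30 were measured and 5 were called higher at 75 mg/kg, where 0.132% of all present probes were: *Cdkn1a*, the cell cycle inhibitor p21 (log2 fold change 1.60, SE 0.22, limma adjusted p = 0.00148), *Ddit4l* (1.65), *Phlda3*, an AKT inhibitor (0.94), *Aen*, an apoptotic nuclease (0.80), and *Zmat3*, an RNA-binding protein (0.76). With controls and 75 mg/kg alone in the fit, 0 were called. *Ccng1* (1.04, adjusted p = 0.131), *Mdm2* (0.39, adjusted p = 0.365) and *Bax* (0.40, adjusted p = 0.552) were not called. At 25 mg/kg *Cdkn1a* was at 0.08 and *Phlda3* at -0.04, where *Rps27l* was at 0.53, and at 50 mg/kg they were at 0.64 and 0.38, where *Rps27l* was at 0.12. The list's medians were -0.05, 0.08 and 0.34 at the 3 doses. Across the 20 arrays *Rps27l* correlated most with *Aen* (r = 0.664), *Zmat3* (0.620) and *Cdkn1a* (0.600), which ranked 342nd, 497th and 594th of 12985 genes, and 6 of the 30 targets had an r over 0.5, against 8.98% of all genes. The r was below 0 for 10 of the 30 and under -0.5 for 2, *Xpc* (-0.530) and *Ddb2* (-0.512), both of nucleotide excision repair, against 6.21% of all genes, and the median over the 30 was 0.249. With group means removed, the r fell to 0.444 for *Aen*, 0.476 for *Zmat3* and 0.499 for *Cdkn1a*, while that of *Bax* went from 0.539 to 0.551. Whether *Rps27l* differed from these targets at any dose was not tested. The study had named *Cdkn1a*, *Ccng1* and *Zmat3* from the same livers, so the count is not independent evidence of their direction.

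Other genes of protein synthesis showed no calls at 75 mg/kg, where 0.132% of all present probes were called higher and 0.00366% lower. The 76 mitochondrial ribosomal protein genes had medians of 0.01 at 25, -0.09 at 50 and 0.03 at 75 mg/kg. At 50 mg/kg 57 of 76 were below 0, against 6661 of all 12986 genes, and the median there stayed below 0 under every scaling. Of 66 listed ribosome assembly genes 62 were measured, with a median of -0.03 at 75 mg/kg, and the 31 translation factors had a median of 0.01.

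Markers of some liver cell types moved along with the family over the arrays. The mean of the 7 endothelial markers, in which *Lyve1* was called at 75 mg/kg, ran from -0.51 to 0.39 in controls and 0.24 to 0.95 at 75 mg/kg, and correlated with the family's median at r = 0.757 and with *Rps27l* at 0.605 over 20 arrays. The log2 fold changes of these 7 markers at 75 mg/kg ran from -0.11 to 2.23, with a median of 0.30. The 6 hepatocyte markers ran from -0.53 to 0.80 in controls and 0.29 to 0.59 at 75 mg/kg (r = 0.451 and 0.338). Their log2 fold changes at 75 mg/kg ran from 0.34 to 0.73, with a median of 0.46. For the 3 measured of 5 neutrophil markers r was 0.654 and 0.641, at -0.27 to 0.39 in controls and -0.14 to 1.07 at 75 mg/kg. The 6 stellate cell and fibroblast markers (r = 0.583 and 0.292) and the 6 Kupffer cell markers, among them *Marco*, called at 75 mg/kg (0.283 and 0.272), overlapped between controls and 75 mg/kg too. Log2 fold changes of the 6 Kupffer cell markers at 75 mg/kg ran from -0.30 to 2.19, with a median of 0.10. Those of the 6 stellate cell and fibroblast markers ran from -0.19 to 0.80 (median 0.40), and those of the 3 neutrophil markers from -0.17 to 1.34 (median 0.39). The correlation with the family's median was 0.306 for 3 B cell, 0.0744 for 5 bile duct, -0.199 for 4 T cell and -0.129 for 4 lung epithelial markers. With *Rps27l* it was 0.464, 0.0216, -0.251 and -0.309 in the same order. The part of cell composition in these results was not tested.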

How the data were processed

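Liver and reference intensities of 20 two-color arrays, the median spot and local background brightness written by Feature Extraction 10.1.1.1 per the file headers, were deposited by the authors without further normalization, and the deposited log2 ratios of the series matrix, LOWESS-normalized by the authors, served as an alternative. The scanner software's processed signal (intensity), background subtracted and dye normalized, was another. The study left 1 sample out of its own fit and the sources used here do not say which, so all 20 were kept. Spots were background corrected (normexp, offset 50) and loess-normalized within arrays in limma 3.58.1 (R 4.3.3), outlier spots were left out and spots of a probe averaged. A probe was present above the trimmed mean (trim 5%) plus 3 trimmed SDs of 153 negative control spots in at least 4 arrays of a group, which kept 27346 probes. Accessions named 23374 of 41174 probes through RefSeq.

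Groups came from the sample labels. The series description gives 24 mg/kg for the low dose and the labels 25. One limma model covered all 20 arrays with no block, tested on simulated data first. *Rps27l* minus *Rps27* was tested by two-sided exact permutation. Replicates were separate mice. The number of arrays limits the precision. The members and gene lists were chosen with earlier results of these data known. Genes named were *Rps27l*, *Rps27*, the 3 highest and 3 lowest members at each dose, the 3 with the widest spread between probes, the stalk, MDM2-binding and paralog genes, *Rpsa*, set p53 targets, called list genes and the 5 genes most like *Rps27l*. *Rpl10l* and *Rps4l* had no probe by this mapping and *Eda2r* no present probe. *Rpl15*, *Rps12*, *Rpl9*, *Rpl41*, *Rps19bp1*, *Rps28* and *Rpl24* were named after their values were seen. Alternatives changed background correction, scaling, filter, slide block, samples and single arrays.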

Additional observations from a re-analysis of the deposited data

Results flagged for a closer look

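In 163 groups of 5 arrays tested for a value far from the other 4, 6 stood apart among the named genes, and chance gives about 1 in 20. These were *Rps7* in control replicate 2 (-2.39), *Rpl11* (-1.34) and *Rpl31* (-2.33) in replicate 7 at 25 mg/kg, *Rpl21* in replicate 12 (-0.71) and *Rpl22* in replicate 13 (-1.89) at 50 mg/kg, and *Rps14* in replicate 18 at 75 mg/kg (-1.94), all log2 ratios of liver over reference. None was a value of *Rps27l* or *Rps27*.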

How the results depend on the processing

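No ribosomal protein probe was called at any dose under any alternative run, and the 3 changes of *Rps27l* kept their direction and stayed uncalled in all of them, as did its trend with dose in all but the fit of 2 groups, where it was not run. Aquantile normalization leaves log ratios as they were and so tested nothing here. The difference *Rps27l* minus *Rps27* at 75 mg/kg (0.50, exact permutation p = 0.0476) passed 0.05 no longer without background correction (0.489, p = 0.0556), with the authors' ratios (0.405, p = 0.0794) and within slides (0.549, p = 0.25, the smallest p possible there), and ranged from 0.351 to 0.605 with 1 array left out, exact permutation p between 0.0238 and 0.111. At 50 mg/kg this difference (-0.02) turned to 0.00156 with the authors' ratios and 0.158 with the liver channel alone, and ranged from -0.165 to 0.0890 with 1 array left out. The 5 called p53 targets became 0 with only controls and 75 mg/kg in the fit. The family's median moved by more than the spread between arrays with the liver channel alone (-0.0135, -0.0612 and 0.0329 at 25, 50 and 75 mg/kg) and with the scanner software's signals (0.242 at 25 and 0.317 at 75 mg/kg). Over all probes the 37 calls at 75 mg/kg became 58 with the scanner software's signals, 58 and 62 with slide as a fixed or random block, 5 with 2 groups in the fit, and 25 to 72 with 1 array left out (25 without replicate 20, 72 without replicate 19). At 50 mg/kg the 0 calls became 4 with the scanner software's signals and 3 and 6 with slide as a fixed or random block. No paired analysis by replicate number was possible because the groups share none, while arrays of the same slide were compared within slides 1 to 3 and by the slide blocks. Median liver signal over background was 1.29 to 1.72 per array. For 75 mg/kg against controls, position on the slide cannot be told apart from dose.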
